A study of Mus musculus with 18 samples.

Results

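Matrix metalloproteases (Mmp), disintegrin metalloproteases (Adam and Adamts) and the tissue inhibitors that block them (Timp) were followed in mouse macrophage libraries. The members were every gene whose symbol is Mmp, Adam, Adamts or Timp followed by a digit and that was listed in both deposited count tables, which gave 80 of 26149 genes. They comprised 23 Mmp, 34 Adam, 19 Adamts and 4 Timp genes. RNA sequencing compared macrophages of mice with the T166A form of PPARg, a lipid-sensing nuclear receptor in which an alanine replaces a threonine that can be phosphorylated, with macrophages of WT mice (C57BL/6J). Skin libraries came from cells of dorsal skin wounds at day 6 after injury that were bound by beads against F4/80, a macrophage surface protein (6 T166A and 6 WT). Bone marrow-derived macrophages (BMDM) were grown from marrow for 7 days with 50 ng/ml of the growth factor M-CSF (3 T166A and 3 WT). In each BMDM genotype, replicates 1 and 2 were in the labelled batch B1 and replicate 3 in batch B2, and the skin libraries carry no batch label. The labels give neither age nor sex, and they do not say in which cells of the mice the T166A form is present. They do not state that replicates came from separate animals, so the p-values measure the spread between these libraries, which may be technical.

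Metalloproteases hold a zinc ion in the active site and are made with a propeptide that keeps them inactive until it is removed. Mmp enzymes cut collagens, elastin and other proteins outside the cell, Adamts enzymes cut mainly proteoglycans and procollagens of the matrix, and Adam enzymes sit in the membrane and release cell surface proteins such as TNF, growth factor precursors and receptors. Timp proteins bind the active site and are themselves secreted. In a healing wound, macrophages, fibroblasts, blood vessels and the epidermis all make such enzymes, which clear the provisional matrix and open paths for cells.

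The skin libraries held 29356289 to 38772910 gene counts and the BMDM libraries 40063340 to 44145168. Levels are gene counts scaled to a library total of 1e+06 (CPM), and CPM per kilobase of the counted transcript wherever genes are compared with each other. The sum of 10 macrophage markers was 13100 to 14900 CPM in T166A and 14700 to 17000 CPM in WT skin libraries, and 36100 to 48500 CPM in T166A and 39900 to 51200 CPM in WT BMDM. Fibroblast markers summed to 6470 to 11900 CPM in T166A and 7330 to 10900 CPM in WT skin libraries, so the bead-bound fraction also held RNA of matrix-producing cells. Among BMDM, these markers summed to 424 CPM in T166A replicate 3, against 8.47 and 11.6 CPM in the other T166A libraries and 4.92 to 47.4 CPM in WT. The extraction protocol speaks of adipocytes, whereas the adipocyte gene Adipoq was at 6.87 to 13.9 CPM in T166A and 0.377 to 1.42 CPM in WT skin libraries, against at least 4160 CPM of the macrophage gene Lyz2 in every skin library.

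A member was called expressed in a source when it averaged at least 1 CPM over all libraries of that source. By this limit 47 of 80 members were expressed in skin and 23 in BMDM, of which 22 were shared. Adam1a was the 1 member expressed in BMDM alone, at 1.13 CPM on average, and it averaged 0.97 CPM in skin, just under the limit. Of its exon bases 63.7% are shared with Gm42878 on the same strand, so its own level is uncertain. A further 32 members were expressed in neither source, and 7 had no count in any of the 18 libraries. In skin, 17 of 23 Mmp, 15 of 19 Adamts, 11 of 34 Adam and all 4 Timp genes were expressed, and in BMDM 9 Mmp, 2 Adamts, 9 Adam and 3 Timp genes were. Many of the Adam genes below the limit are known from mouse testis. Of the 2 Adamts genes over the limit in BMDM, Adamts5, an aggrecanase, passed it through 1 library, with 0, 0.0688 and 14.6 CPM in T166A libraries 1 to 3 and 0.19, 0.281 and 0 CPM in WT libraries.

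Per length, the most abundant members differed between the sources. In skin, Mmp19, a secreted protease that cuts basement membrane proteins (chromosome 10, 128790910 to 128800827, GRCm38), had 463 ± 77.9 CPM per kilobase over both genotypes (SD, n = 12). It was followed by Mmp14, the membrane-bound collagenase that activates Mmp2 (chromosome 14, 54431598 to 54442456), at 377 ± 36.6, the aggrecanase Adamts4 at 290 ± 62.2, the leukocyte sheddase Adam8 at 242 ± 19.1 and the inhibitor Timp1 at 217 ± 29.4 CPM per kilobase. Timp2, the inhibitor that takes part in the activation of Mmp2 by Mmp14, Mmp12, the macrophage elastase, and the sheddase Adam9 came next at 146 ± 8.68, 85.1 ± 19.6 and 70.3 ± 3.55 CPM per kilobase. In T166A skin Mmp19 had 390 ± 20 and Mmp14 398 ± 27.1 CPM per kilobase, not separated by their SDs. In WT skin Mmp19 had 535 ± 18.8 and Mmp14 357 ± 35 CPM per kilobase (SD, n = 6 per genotype), so that Mmp19 led in WT alone. From Mmp14 to Timp1 each neighbour in the pooled order lay within the SDs of the next, as did Mmp12 and Adam9. In BMDM, Mmp12 led with 868 ± 278 CPM per kilobase (SD, n = 6), ahead of Adam8 at 212 ± 51.9, Timp2 at 193 ± 30.4 and the sheddase Adam15 at 105 ± 22.6. Adam17, the sheddase of TNF, followed at 41.1 ± 3.84, and Mmp14, Adam9 and Mmp19 lay together at 23.7 ± 9.42, 23.2 ± 5.76 and 20.9 ± 3.82 CPM per kilobase. These values pool both genotypes of a source, and no transcript length was matched for Adamts10, Adamts16 or Mmp16.

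**Figure D1:**
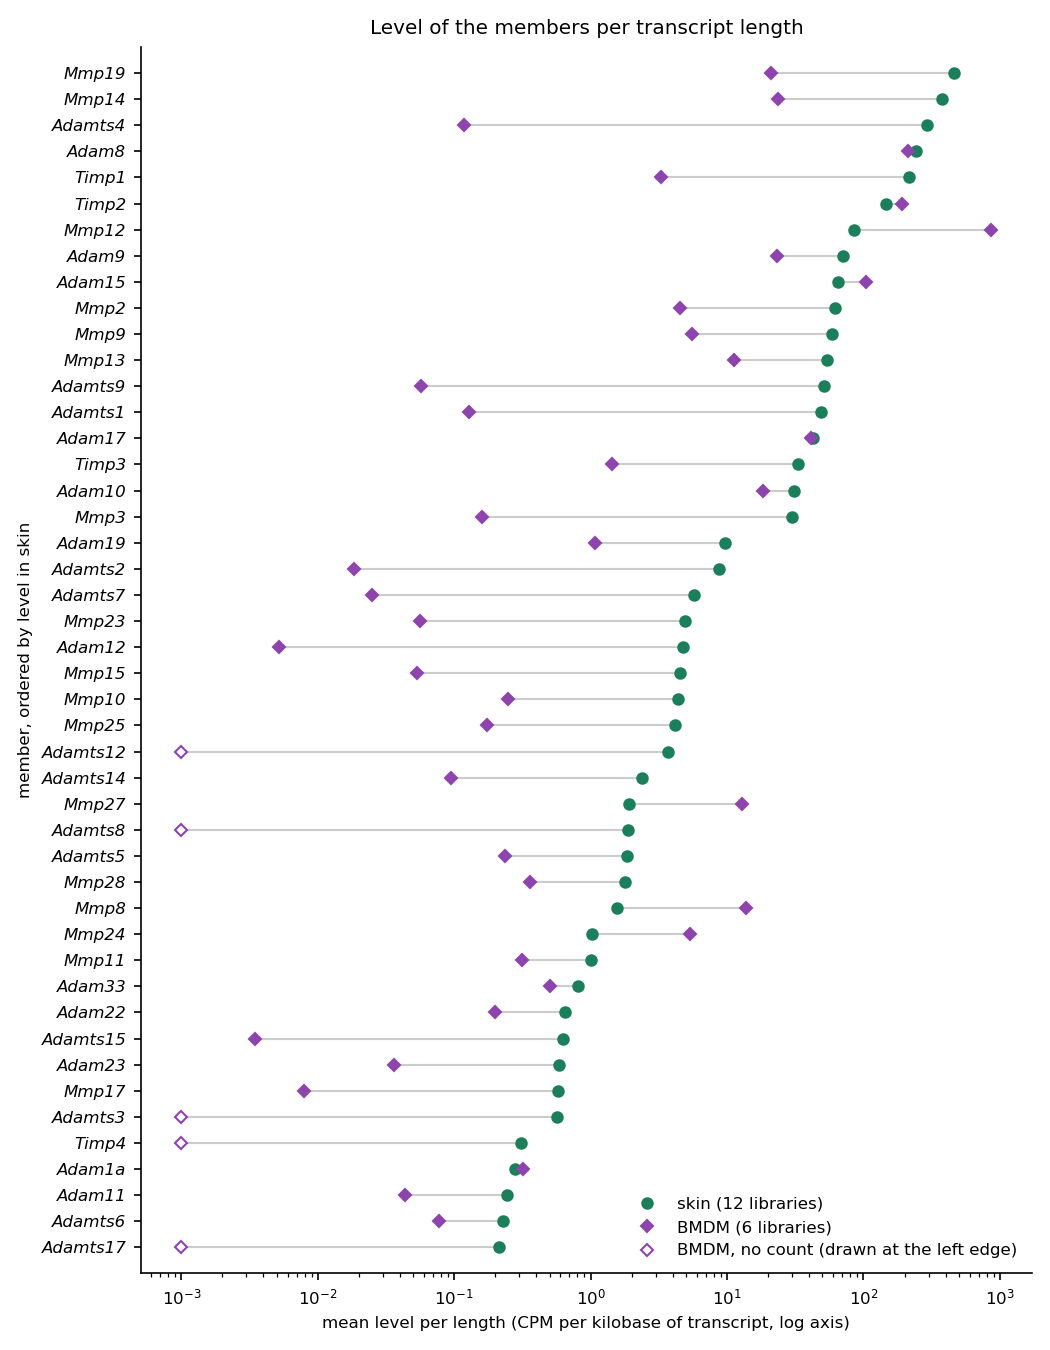
Mean level of 46 members expressed in at least 1 source, in CPM per kilobase of transcript on a log axis, over the 12 skin libraries (circles) and the 6 BMDM libraries (diamonds, open and drawn at the left edge where no read was counted). Mmp19 is at 463 in skin, pooled over both genotypes, and Mmp12 reaches 868 in BMDM, while Adam8 and Adam17 nearly coincide.

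The level between sources was tested as WT skin over WT BMDM in a fit over all 18 libraries. The fit has a term for batch B2, so its fold changes refer to WT BMDM at the level of batch B1. Pooled CPM covers both batches and can differ from the fit. Of 57 members tested, 44 were higher and 7 lower in skin (adjusted p under 0.05 by the quasi-likelihood test of edgeR), 89.5% in all. Among all 16586 genes tested 81.7% passed, 45.9% higher and 35.8% lower. The median log2 fold change was 4.38 over the members and 0.30 over all genes. Among Adamts genes 17 of 18 were higher, among Mmp genes 14 of 19, among Adam genes 10 of 16 and among Timp genes 3 of 4. The source cannot be told apart from how the cells were isolated and prepared, and RLE size factors move the median of all genes by 0.20.

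For several Adamts genes WT BMDM held no read at all. Adamts12, which cuts a cartilage matrix protein, had 5511 counts in WT skin and 0 in WT BMDM, so its level was at least 1130-fold higher, with 3 counts over the WT BMDM group as the floor. On the same floor Adamts8 was at least 205-fold, Adamts15 at least 139-fold and Timp4 at least 76.5-fold higher in skin. Adamts4 had 1140 CPM in WT skin, pooled over libraries, against 0.2 CPM in WT BMDM, a 5710-fold difference. Adamts9 and Adamts1, both proteoglycan-cutting enzymes, were 4150-fold and 1370-fold higher in pooled CPM, and the transmembrane protease Mmp15 201-fold. In all, 9 of the 57 tested members had no count in WT BMDM and 3 had 1 to 3 counts, and with the first set at the floor the median log2 ratio of pooled CPM was 4.50. Fitted fold changes of such genes depend on the prior count and are not given. The fibroblast, keratinocyte and endothelial marker sums were also higher in skin than in BMDM, with WT means of 9700 against 19.1 CPM, 255 against 1.2 CPM and 1750 against 85.5 CPM. Their part in the levels of the members was not tested.

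The 7 members lower in skin were Mmp12, Mmp8, Mmp27, Mmp24, Adam15, Timp2 and Adamts10. Mmp12 had 143 CPM in WT skin and 1340 CPM in WT BMDM, pooled over libraries, or -3.23 on the log2 scale. The fit, which refers to batch B1 of BMDM, gave -3.51 (SE 0.16, edgeR adjusted p = 3.11e-13). Mmp8, the neutrophil collagenase, had 4.85 CPM in WT skin and 41.7 CPM in WT BMDM (log2 fold change -3.48, SE 0.39), and Mmp27 had 3.27 and 18.2 CPM in these groups (-2.55, SE 0.30). Mmp24, a transmembrane protease known mainly from the nervous system, was at 4.74 CPM in WT skin and 25.5 CPM in WT BMDM (-2.37, SE 0.14). Opposite-strand genes share 13.6% of the exon bases of Mmp24 and 20.6% of those of Adam15. The differences of Adam15, Timp2 and Adamts10 were smaller, at -0.94, -0.41 and -0.41 in the fit. In pooled CPM they were -0.73, -0.27 and -0.19 on the log2 scale. Adamts10 lost its call with RLE size factors, with DESeq2 (both -0.20) and without a batch term (-0.24), and Timp2 kept its call in all 27 alternatives. Adam8 and Adam17 did not pass, at log2 fold changes of -0.14 (SE 0.11) and 0.09 (SE 0.08) in the fit. In pooled CPM their log2 ratios were 0.09 and 0.13.

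Mmp12, Mmp8 and Mmp27 lie in a cluster of 10 Mmp genes within 427 kb of chromosome 9 (7272514 to 7699585, GRCm38), a feature the choice of members did not use. Promoter sequences from RefSeq (GRCm38.p6) were matched for 50 of the 80 members, 55 promoters in all, each running from 250 bases before to 50 after a start site. The AP-1 motif TGANTCA, searched on both strands, occurred in 8 of the 10 cluster genes, 35 to 95 bases before the start, and in 5 of the 40 other members with a promoter. It was present in 23.6% of the members' promoters and in 7.81% of all 32851 promoters. The TATA motif TATAAA, searched on both strands, occurred in 9 of the 10 cluster genes, in 27.3% of the members' promoters and in 13.6% of all promoters. A match of letters is a description and not a measured binding site. The 100 bases before the start of the 6 cluster genes expressed in either source are shown in chromosome order because these neighbours differ in the motif and in the results below. Capitals mark AP-1 and TATA matches within the stretch, all on the forward strand of chromosome 9.
Mmp13, chr9:7272414-7272513: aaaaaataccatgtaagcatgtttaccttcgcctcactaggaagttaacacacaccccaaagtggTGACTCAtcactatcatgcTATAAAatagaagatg
Mmp12, second start site, chr9:7347274-7347373: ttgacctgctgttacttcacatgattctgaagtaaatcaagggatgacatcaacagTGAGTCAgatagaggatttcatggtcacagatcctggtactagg
Mmp3, chr9:7445722-7445821: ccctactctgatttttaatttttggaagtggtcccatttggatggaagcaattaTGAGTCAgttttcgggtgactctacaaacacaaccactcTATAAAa
Mmp10, chr9:7502242-7502341: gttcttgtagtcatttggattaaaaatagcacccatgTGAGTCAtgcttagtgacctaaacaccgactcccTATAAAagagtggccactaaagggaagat
Mmp8, chr9:7558329-7558428: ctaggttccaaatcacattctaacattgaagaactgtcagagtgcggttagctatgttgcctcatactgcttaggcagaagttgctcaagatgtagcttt
Mmp27, chr9:7571296-7571395: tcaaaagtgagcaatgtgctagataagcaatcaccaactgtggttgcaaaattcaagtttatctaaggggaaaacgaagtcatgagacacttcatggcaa
The capitals show TGACTCA in Mmp13 and TGAGTCA in Mmp12, Mmp3 and Mmp10, whereas neither Mmp8 nor Mmp27 holds a match to the AP-1 motif in this stretch. The first start site of Mmp12 and Mmp27 hold neither motif in the whole promoter window.

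The comparison of genotypes in wound skin asked how the members differ between T166A and WT in the bead-bound fraction, which also held RNA of other cells. Of 54 members tested 23 passed (edgeR, adjusted p under 0.05), 12 higher and 11 lower in T166A, which is 42.6%, against 25.9% of all 15473 genes tested (12.7% higher and 13.2% lower). Of 18 Mmp genes 6 fell, led by Mmp19 and including Mmp3, Mmp11 and Mmp12, while 4 rose. Of the 18 Adamts genes tested, 4 rose and 1 fell, of 14 Adam genes 3 rose and 3 fell, and among the inhibitors Timp3 rose and Timp2 fell. The median log2 fold change was 0.00 over the members and 0.01 over all genes, with median sizes of 0.31 and 0.18. In 7 of 54 members (13%) the T166A and WT libraries did not overlap in CPM, 6 higher and 1 lower, against 12.9% of all genes (8.82% higher and 4.08% lower). Without WT replicate 6 the number lower was 7 of 55 tested, where 11.3% of all genes were lower. TMM factors were 1.016 to 1.048 in T166A and 0.946 to 1.001 in WT skin libraries. With library totals alone all log2 fold changes moved up by a median of 0.09, which left 12 members higher and 6 lower. Of all 15473 genes, 3357 were then higher and 1307 (8.45%) lower, so the 12 members stand against a larger share than with TMM. Overlap was judged in CPM without these factors, so narrow gaps between genotypes depend on the scaling.

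Mmp19 had the smallest p of all members. It was at 1250, 1320 and 1410 CPM (lowest, median, highest of 6) in T166A skin and at 1750, 1820 and 1920 CPM in WT skin, and every T166A library lay below every WT library. The fitted difference was -0.54 on the log2 scale (SE 0.05, edgeR adjusted p = 2.34e-08), and it ranged from -0.56 to -0.46 over 23 alternatives, all past the threshold. The opposite-strand gene Tmem198b overlaps 22.3% of the exon bases of Mmp19, and without a known strand setting reads of both cannot be told apart.

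In the chromosome 9 cluster 3 proteases fell. Mmp12 had 76.5, 102 and 140 CPM in T166A skin against 120, 140 and 169 CPM in WT skin (log2 fold change -0.57, SE 0.14, edgeR adjusted p = 0.0116), and its groups overlapped. Mmp3, the stromelysin that cuts many matrix proteins and activates other Mmp enzymes, had 38.9, 44.6 and 57.6 CPM in T166A and 50.3, 60.4 and 71.1 CPM in WT libraries (-0.47, SE 0.10, edgeR adjusted p = 0.00336), again with overlap. For Mmp8 the 6 T166A libraries spanned 2.04 to 3.59 CPM, inside the WT range of 1.8 to 9.57 CPM. Its fall (-0.98, SE 0.32, edgeR adjusted p = 0.0417) did not pass in 11 of 23 alternatives. Their neighbours Mmp10 and Mmp13 did not pass. Mmp10, a second stromelysin, had 4.22, 8.02 and 9.6 CPM in T166A and 6.13, 6.66 and 10.1 CPM in WT skin (-0.04, SE 0.18). Mmp13, a collagenase, had 107, 141 and 194 CPM in T166A and 113, 145 and 171 CPM in WT skin (-0.09, SE 0.14). For both, the genotypes overlapped almost completely. Mmp11, a protease of stromal cells outside this cluster, fell as well, with 1.06, 1.89 and 2.37 CPM in T166A against 2.14, 2.84 and 3.66 CPM in WT skin (-0.72, SE 0.20, edgeR adjusted p = 0.01), with a small overlap.

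Among the Mmp genes that rose, 3 encode membrane-anchored enzymes. Mmp17, held by a lipid anchor, had 3.68, 4.83 and 6.21 CPM in T166A skin against 1.4, 2.46 and 3.74 CPM in WT skin (0.87, SE 0.18). Mmp25, anchored in the same way, had 18, 22 and 23.7 CPM in T166A against 14, 15.2 and 19.2 CPM in WT skin (0.34, SE 0.09). Mmp15 had 19.4, 27.7 and 32.3 CPM in T166A against 17.4, 19.5 and 21.2 CPM in WT skin (0.40, SE 0.09). In all 3 the lowest T166A library lay below the highest WT library. The secreted Mmp28 rose without overlap, at 4.8, 5.6 and 6.63 CPM in T166A against 2.62, 2.96 and 4.2 CPM in WT skin (0.79, SE 0.14, edgeR adjusted p = 0.000202), although 12% of its exon bases are shared with an opposite-strand gene. Mmp16, a transmembrane protease below 1 CPM, was lower (-1.03, SE 0.36, edgeR adjusted p = 0.0386), and 9 of 22 alternatives lost this call.

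Mmp14 and the gelatinases did not pass. Mmp14 had 913, 1070 and 1080 CPM in T166A against 795, 923 and 1070 CPM in WT skin (0.07, SE 0.06, edgeR adjusted p = 0.427). Mmp9, gelatinase B (chromosome 2, 164940326 to 164955850, GRCm38), had 156, 238 and 296 CPM in T166A against 70, 147 and 187 CPM in WT skin (0.64, SE 0.24). Its adjusted p was 0.0745 by edgeR, 0.019 by DESeq2 and 0.0347 by limma-voom. Mmp2, gelatinase A, had 125, 184 and 217 CPM in T166A and 163, 206 and 221 CPM in WT skin (-0.25, SE 0.12, edgeR adjusted p = 0.147). In all 3 the genotypes overlapped.

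Adamts genes that rose include the related pair Adamts7 and Adamts12, which cut the same cartilage matrix protein. Adamts7 had 31.4, 36.9 and 46.5 CPM in T166A against 18.9, 22.8 and 26.7 CPM in WT skin (0.64, SE 0.11, edgeR adjusted p = 0.000212). Adamts12 had 31.1, 36.1 and 40.8 CPM in T166A and 23, 27.5 and 30.9 CPM in WT skin (0.31, SE 0.07). Adamts8 had 7.45, 8.32 and 11 CPM in T166A and 3.58, 5.12 and 6.02 CPM in WT skin (0.75, SE 0.13, edgeR adjusted p = 0.000138). In these 3 genes every T166A library lay above every WT library in CPM by library totals. The opposite-strand gene Gm29724 shares 10.6% of the exon bases of Adamts8. For Adamts12 the gap is narrow (31.1 against 30.9 CPM) and leaves out the TMM factors, which were higher in T166A. Adamts1, which cuts versican, rose with overlap, at 231, 282 and 320 CPM in T166A and 156, 197 and 247 CPM in WT skin (0.42, SE 0.10). The most abundant Adamts genes did not pass in the fit by genotype. Adamts4 had 1010, 1370 and 1770 CPM in T166A against 968, 1120 and 1520 CPM in WT skin (0.19, SE 0.16). Adamts9 had 246, 354 and 418 CPM in T166A against 226, 256 and 341 CPM in WT skin (0.29, SE 0.14), and both genes overlapped between genotypes. Both passed with a replicate block (edgeR adjusted p = 0.0277 for Adamts4 and 0.000788 for Adamts9), and Adamts9 also passed without T166A replicate 1 (0.0321). The labels do not say whether the skin replicate numbers pair the libraries. The summed Adamts level was highest in replicate 3 of both genotypes, at 2680 CPM in T166A and 2280 CPM in WT skin. Adamts10, a partner of microfibrils, was lower (13.4, 14.4 and 17 CPM in T166A against 13.5, 17.6 and 18.1 CPM in WT skin), with an adjusted p of 0.0211 by edgeR that became 0.125 with library totals alone.

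The sheddases Adam10 and Adam17 differed in opposite directions by small amounts. Adam10, the main sheddase of Notch receptors (chromosome 9, 70678944 to 70780229, GRCm38), had 139, 162 and 167 CPM in T166A against 121, 126 and 135 CPM in WT skin, with no overlap (0.23, SE 0.05, edgeR adjusted p = 0.00153). Adam17 had 172, 188 and 204 CPM in T166A and 191, 196 and 206 CPM in WT skin (-0.16, SE 0.05, edgeR adjusted p = 0.0187), with overlapping groups. With library totals alone its log2 fold change was -0.07 and did not pass (edgeR adjusted p = 0.295). Adam8, Adam9 and Adam15 did not pass, with log2 fold changes of -0.05, -0.07 and 0.00 and SEs of at most 0.06. Among 3 members that lack a working protease site, 2 rose and 1 fell. Adam11 had 1.3, 1.42 and 2.69 CPM in T166A and 0.588, 0.774 and 1.12 CPM in WT skin (0.91, SE 0.26), without overlap. Adam23 had 3.49, 4.37 and 5.56 CPM in T166A and 2.63, 2.94 and 3.99 CPM in WT skin (0.44, SE 0.15). Adam22 had 4.31, 5.03 and 5.92 CPM in T166A and 5.47, 6.69 and 7.83 CPM in WT skin (-0.49, SE 0.12), and for both of these the groups overlapped. The rise of Adam23 lost its call in 8 of 23 alternatives. Adam30, known from testis and below 1 CPM here, was lower (-1.04, SE 0.33), but did not pass without WT replicate 5 (edgeR adjusted p = 0.0551) or T166A replicate 6 (0.0522).

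Of the inhibitors, Timp3, which stays bound to matrix and also blocks Adam and Adamts enzymes, had 129, 187 and 217 CPM in T166A against 108, 129 and 169 CPM in WT skin, with overlapping groups. Its rise (0.40, SE 0.13, edgeR adjusted p = 0.0432) was lost in 11 of 23 alternatives, and 21.3% of its exon bases are shared with the opposite-strand gene Syn3. Timp2 had 484, 522 and 570 CPM in T166A against 515, 560 and 588 CPM in WT skin, so the groups overlapped. Its log2 fold change was -0.17 (SE 0.06, edgeR adjusted p = 0.0268) and -0.08 with library totals alone (edgeR adjusted p = 0.227). In all, 6 of 23 alternatives lost this call, the others being without WT replicates 1, 4 or 6 or T166A replicates 2 or 4. Timp1 had 154, 212 and 233 CPM in T166A and 158, 186 and 192 CPM in WT skin (0.10, SE 0.10, edgeR adjusted p = 0.527). Timp4 had 0.218, 1.93 and 2.26 CPM in T166A and 0.552, 1.8 and 4.43 CPM in WT skin (-0.43, SE 0.58), and neither separated the genotypes. Summed over the 4 inhibitors, the level was 857 to 961 CPM in T166A and 805 to 909 CPM in WT skin, while the 23 Mmp genes summed to 2920 to 3360 CPM in T166A and 3330 to 3780 CPM in WT skin.

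**Figure D2:**
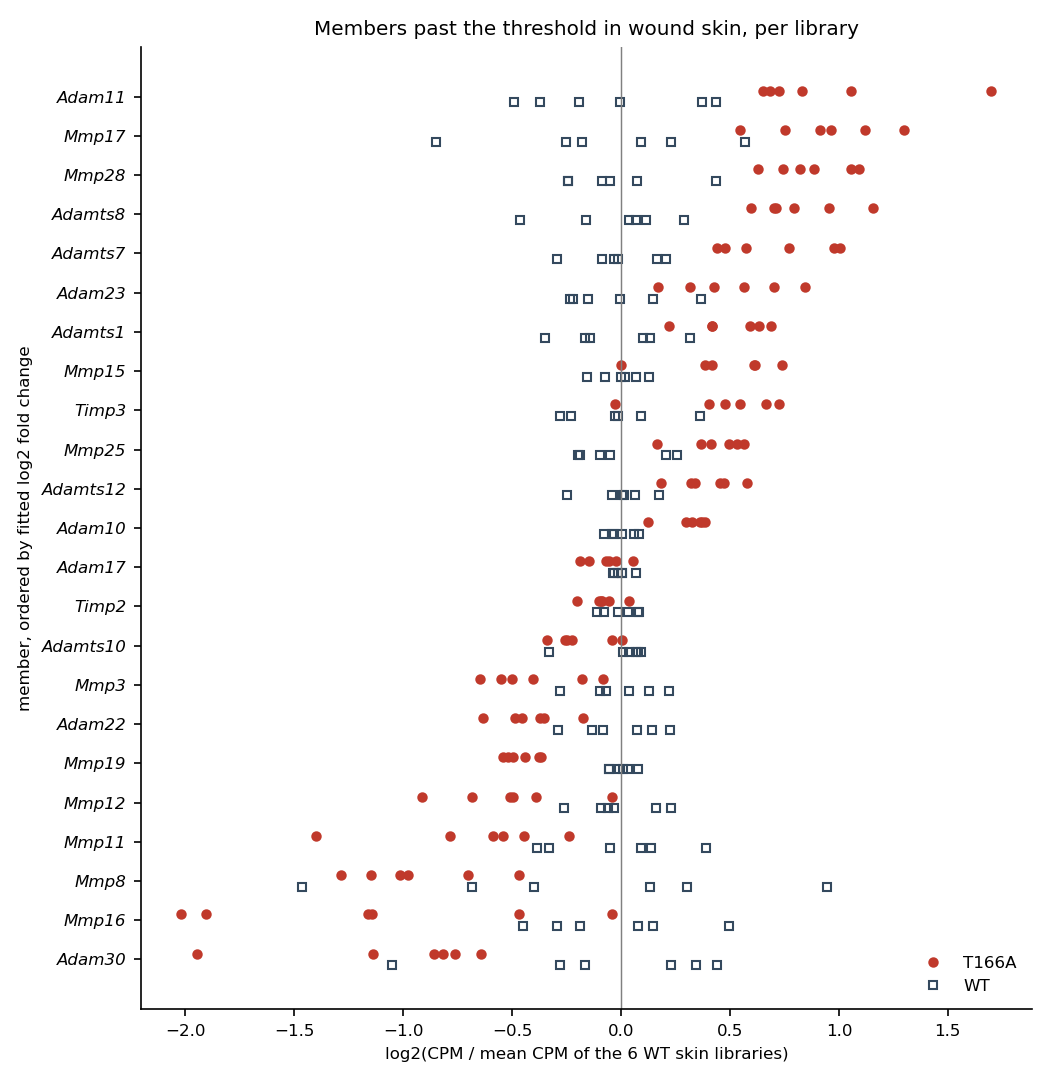
CPM of the 23 members past the threshold in wound skin, as log2 of each library's CPM over the mean of the 6 WT libraries, with T166A libraries (filled circles, upper row of each gene) and WT libraries (open squares, lower row), 6 each. Mmp19 and Adamts8 separate fully, whereas for Adam17, Timp2 and Mmp8 the genotypes overlap.

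Cell type markers moved with genotype in the same libraries, where 12.7% of all genes tested were higher and 13.2% lower. Of 10 macrophage markers 7 were lower and none higher (median log2 fold change -0.32), of 10 endothelial markers 7 were higher and none lower (0.44), and of 8 pericyte and smooth muscle markers 5 were higher and none lower (0.60). Endothelial markers summed to 1980 to 2880 CPM in T166A and 1480 to 2070 CPM in WT skin. None of 10 fibroblast markers passed (median -0.15), and 1 of 10 keratinocyte markers was lower (median 0.01). Of 7 neutrophil markers tested 3 were lower (median -0.59), with sums of 163 to 262 CPM in T166A and 243 to 292 CPM in WT skin. Of 9 adipocyte markers 8 were higher (median 2.12), as were 5 of 7 Schwann cell markers (median 0.88). Of 7 skeletal muscle markers 6 were lower (median -1.27), and of 7 mast cell markers 3 were lower and 1 higher (median -0.65). In such bulk samples fewer cells of a type and less RNA per cell cannot be told apart, and the part of these shifts in the members' changes was not tested.

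Genes that act with the members were read from 3 lists. Of 31 regulators and partners with enough counts in skin, 4 rose and 7 fell with T166A (median log2 fold change -0.03). Of all genes tested, 12.7% rose and 13.2% fell. Plat, a plasminogen activator, had 123, 132 and 136 CPM in T166A against 82.1, 96.9 and 106 CPM in WT skin, without overlap (0.36, SE 0.06, edgeR adjusted p = 5.41e-05). The other activator, Plau, was lower, at -0.17 on the log2 scale (SE 0.05), and lost its call in 6 of 23 alternatives, one of them library totals alone (-0.08). Rhbdf2, which carries Adam17 to the cell surface, was at 317, 326 and 365 CPM in T166A and 353, 365 and 378 CPM in WT skin (-0.22, SE 0.05, edgeR adjusted p = 0.00174). Tspan14, which escorts Adam10, was lower, at -0.33 on the log2 scale (SE 0.06, edgeR adjusted p = 0.000371), while Adam10 itself was higher. Reck, a membrane inhibitor of several Mmp enzymes, had a log2 fold change of -0.40 (SE 0.14), a call lost in 11 of 23 alternatives.

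Of 29 substrates of the sheddases tested 6 were higher and 15 lower in T166A skin (median -0.15). For comparison, 12.7% of all genes were higher and 13.2% lower. The cytokine Tnf had 355, 406 and 452 CPM in T166A against 671, 727 and 776 CPM in WT skin (-0.94, SE 0.06, edgeR adjusted p = 1.22e-10). The EGF receptor ligands Areg, Ereg and Hbegf fell by 0.90, 1.23 and 0.49 on the log2 scale, whereas Tgfa and Btc, ligands of the same receptor, rose by 0.55 and 1.17. Cx3cl1 had 78.9, 91.9 and 103 CPM in T166A against 38.7, 47.7 and 55.5 CPM in WT skin (0.88, SE 0.08), and Csf1 and Vcam1 rose by 0.42 and 0.50. Notch1, cut by Adam10, was lower, at -0.52 on the log2 scale (SE 0.06). These are transcript levels and do not measure shedding.

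Of 16 transcription factors of the AP-1, NF-kB, Ets and Runx groups 14 were lower and none higher in T166A skin (median -0.33). Among all genes tested, 13.2% were lower and 12.7% higher. The 10 macrophage markers had a median of -0.32 in the same libraries. The AP-1 subunit Fos had 222, 261 and 286 CPM in T166A against 311, 354 and 399 CPM in WT skin (-0.55, SE 0.07). Junb, a second subunit, had 725, 764 and 996 CPM in T166A against 1000, 1110 and 1190 CPM in WT skin (-0.52, SE 0.08). In both genes every T166A library lay below every WT library. Jun changed least of those that passed (-0.16, SE 0.06), and 10 of 23 alternatives lost its call. Of the AP-1 motif genes printed above, Mmp3 and Mmp12 were lower, and Mmp10 and Mmp13 did not pass. Of those printed without the motif, Mmp8 was lower (-0.98, edgeR adjusted p = 0.0417) and Mmp27 did not pass (-0.14, SE 0.29). A link between the motif and the changes was not tested.

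In BMDM none of 29 members tested passed an adjusted p of 0.05 by edgeR, where 9 of all 13132 genes (0.0685%) did, 0.0609% higher and 0.00761% lower. With DESeq2 there were 2 members up and 2 down, where 3.05% of all genes passed, and with limma-voom 1 of each, where 1.33% of all genes passed. At an unadjusted p under 0.05 there were 9 members (31%), 4 higher and 5 lower, against 12.8% of all genes (6.5% higher and 6.32% lower). In 9 members (31%), 6 higher and 3 lower, the groups did not overlap, against 13.8% of all genes (8.01% higher and 5.83% lower). The median log2 fold change was 0.15 over the members and -0.02 over all genes. The 3 residual degrees of freedom and the spread between libraries limit this comparison, since the median coefficient of variation of the expressed members was 29.6% in T166A and 33.2% in WT BMDM, against 16.9% and 14% in T166A and WT skin.

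Adam9, a sheddase found in most cell types (chromosome 8, 24949611 to 25017040, GRCm38), had the smallest p in BMDM. It was at 120, 114 and 110 CPM in T166A replicates 1 to 3 and at 79.7, 70.5 and 69.3 CPM in WT replicates 1 to 3. All T166A libraries lay above all WT libraries, by 0.64 on the log2 scale within batch B1 and by 0.67 within batch B2. The fitted log2 fold change was 0.62 (SE 0.12, edgeR adjusted p = 0.14), and DESeq2 and limma-voom gave adjusted p-values of 0.000159 and 0.0344. Its coefficient of variation was the lowest of the expressed members in T166A BMDM, at 4.33%.

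Mmp9 had 13, 14.5 and 1.67 CPM in T166A replicates 1 to 3 and 44.1, 21.1 and 11.4 CPM in WT replicates 1 to 3. The groups overlapped across batches, but within each batch T166A was lower, by a log2 fold change of -1.24 in B1 and -2.70 in B2 (fit -1.72, SE 0.37, edgeR adjusted p = 0.175). Without WT replicate 2 the edgeR adjusted p was 0.0336. Mmp14 had 59.9, 55.4 and 103 CPM in T166A and 43, 34.5 and 72.8 CPM in WT libraries, with overlap across batches but higher in T166A within B1 (0.57) and B2 (0.51), with a fit of 0.52 (SE 0.13, edgeR adjusted p = 0.212). Mmp19 had 63.1, 64.9 and 54.6 CPM in T166A and 90.9, 79.3 and 74.3 CPM in WT libraries without overlap, with a fitted value of -0.45 (SE 0.12, edgeR adjusted p = 0.23). Its value in skin was -0.54, from separate libraries, and the interaction between sources was -0.05 (SE 0.09, edgeR adjusted p = 0.759). DESeq2 placed Mmp9, Mmp14 and Mmp19 past the threshold, with adjusted p-values of 0.000373, 0.0195 and 0.021.

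Among the inhibitors in BMDM, Timp1 and Timp3 did not overlap between genotypes but did not pass the test. Timp1 had 0.906, 1.44 and 2.65 CPM in T166A and 5.92, 3.4 and 2.95 CPM in WT libraries. All T166A values were below all WT values, but the log2 difference was -1.90 in batch B1 and -0.15 in batch B2 (fit -1.41, SE 0.48, edgeR adjusted p = 0.299). Timp3 had 8.27, 7.4 and 12 CPM in T166A and 7.06, 3.11 and 2.57 CPM in WT libraries (1.11, SE 0.39, edgeR adjusted p = 0.31), with differences of 0.61 in B1 and 2.18 in B2. Without T166A replicate 3, the library with the high fibroblast marker sum, the fitted value was 0.63 (edgeR adjusted p = 0.404), and without WT replicate 1 it was 1.65 (0.35). Timp2, by far the most abundant inhibitor there, had 887, 788 and 618 CPM in T166A and 764, 636 and 611 CPM in WT libraries (0.15, SE 0.13), with overlap. Timp4 had no count in any BMDM library.

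A single library sets the BMDM values of Mmp2. It had 2.04, 1.1 and 74.9 CPM in T166A replicates 1 to 3 and 3.71, 0.983 and 0.499 CPM in WT, and the log2 fold change of 1.23 (SE 2.32) became -0.56 without T166A replicate 3. That replicate also held 251 CPM of Col1a1 and 106 CPM of Col3a1, collagen genes of fibroblasts, against at most 15 and 3.42 CPM in the other BMDM libraries. The fibroblast markers Dcn and Lum were at 0.639 and 0 CPM in it. Whether fibroblast RNA accounts for its Mmp2 was not tested. Mmp12, the leading protease of BMDM, had 1280, 1570 and 705 CPM in T166A and 1370, 1760 and 876 CPM in WT libraries, lower in B2 than in B1 in both genotypes (genotype effect -0.23, SE 0.16).

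**Figure D3:**
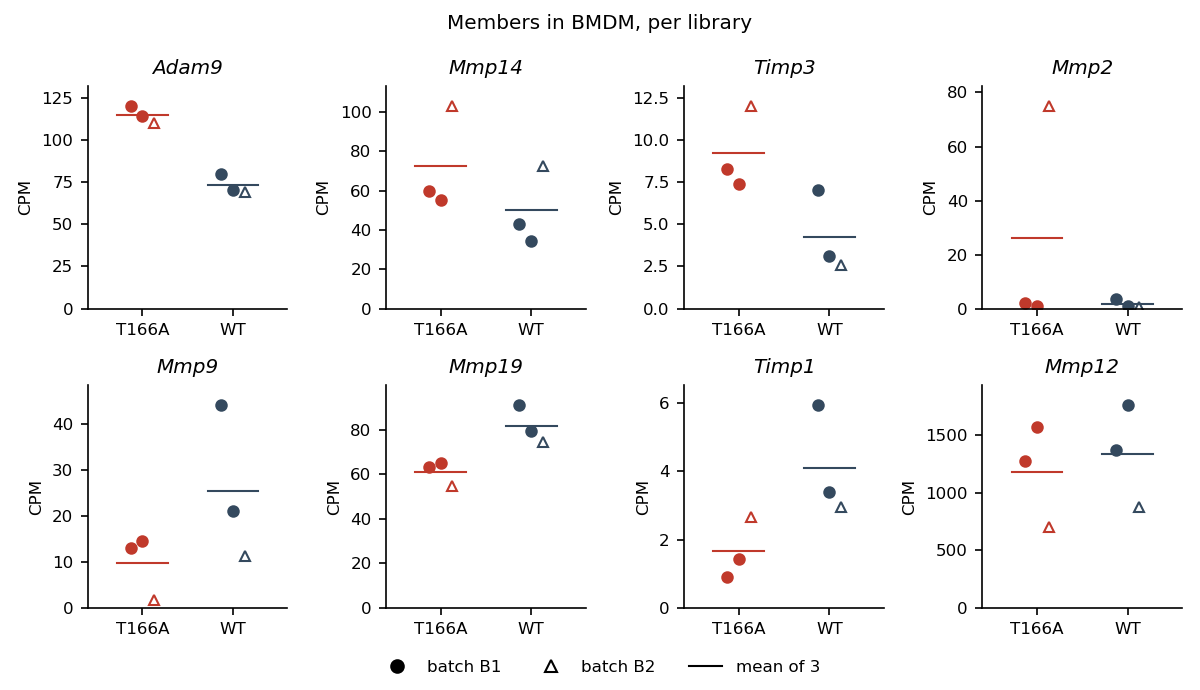
CPM of 8 members in each BMDM library, with T166A to the left of WT, batch B1 as filled circles, batch B2 as open triangles and the mean of 3 libraries as a line. Adam9 and Mmp19 separate by genotype in both batches, and Mmp2 stands at 74.9 CPM in T166A replicate 3 alone.

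Of the 3 lists in BMDM, 1 of 20 regulators and partners tested was lower and none higher, and none of 25 sheddase substrates or of 16 transcription factors passed the edgeR test. The regulator was Plau, at 103, 128 and 85.8 CPM in T166A against 230, 256 and 185 CPM in WT libraries (-1.12, SE 0.14, edgeR adjusted p = 0.0387). The groups did not overlap, but 8 of 19 alternatives lost the call, with values of -1.22 to -1.03 and adjusted p-values of up to 0.621. They were summed rows, batch B1 alone, no batch term and every library left out in turn except WT replicate 2.

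Whether the genotype effect differed between the sources was tested as an interaction over all 18 libraries, skin effect minus BMDM effect. Of 57 members 10 passed (edgeR, adjusted p under 0.05), 5 in each direction, or 17.5%, against 14.3% of all 16586 genes tested (6.1% higher and 8.16% lower). Adam9 had the smallest p, with a log2 difference of -0.65 (SE 0.10, edgeR adjusted p = 0.000336). In skin it was at 267, 287 and 301 CPM in T166A and 263, 278 and 302 CPM in WT libraries, so the genotypes overlapped there. Its call held in all 28 alternatives, with values from -0.71 to -0.58. Mmp14 had an interaction of the same sign (-0.41, SE 0.12, edgeR adjusted p = 0.0255), which 4 of 28 alternatives lost.

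Mmp9 and Timp1 went the other way, with differences of 2.34 (SE 0.49, edgeR adjusted p = 0.00664) and 1.50 (SE 0.36, edgeR adjusted p = 0.013). The fitted effects on Mmp9 were 0.64 in skin and -1.72 in BMDM, and on Timp1 0.10 in skin and -1.41 in BMDM. Each lost its call in 2 of 28 alternatives. The other 6 rest on BMDM levels near or below 1 CPM. Mmp10 had 0.317, 0.0917 and 0 CPM in T166A and 0.689, 1.12 and 0.349 CPM in WT BMDM (interaction 2.46). Mmp16 had counts in 1 BMDM library, T166A replicate 3 with 0.86 CPM, and the fitted value has no size that can be read. Adamts7, Mmp15, Mmp25 and Adam23 averaged at most 1.18 CPM in either BMDM genotype. Adam23 lost its call in 19 of 28 alternatives, Mmp25 in 8, and Mmp15 in 4. For Mmp15 these include the fit without BMDM T166A replicate 3, which held 1.3 CPM of it. With limma-voom no member was higher and 1 was lower, where 9.27% of all genes passed. Without a batch term 3 were higher and 2 lower, where 5.82% passed. Without BMDM T166A replicate 1 there were 3 in each direction (11.5% of all genes passed). Without BMDM WT replicate 1 the number lower was 16 of 60 tested, where 10.2% of all genes were lower.

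**Figure D4:**
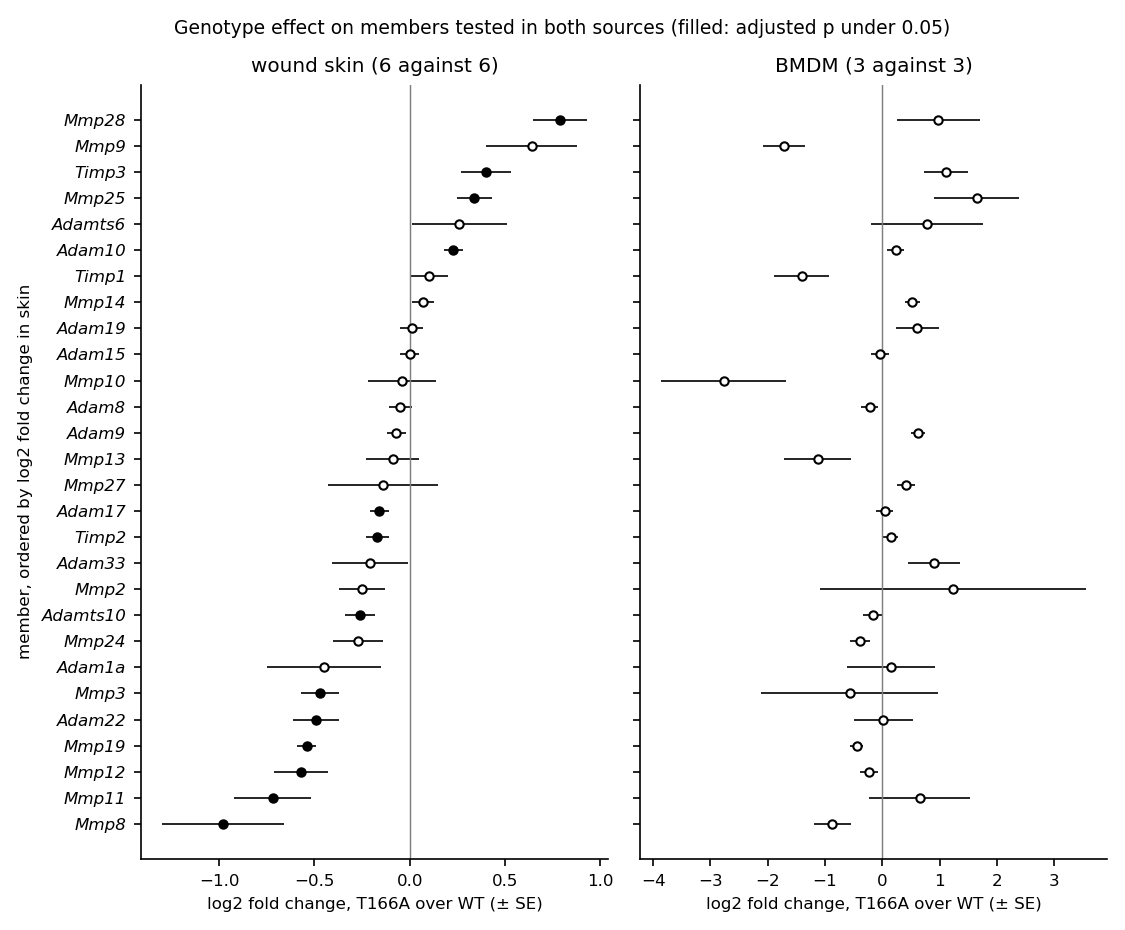
Log2 fold change of T166A over WT (± SE) for 28 members tested in both sources, in wound skin (left, 6 libraries per genotype) and BMDM (right, 3 per genotype), ordered by the value in skin, on horizontal axes of different range. Filled symbols have an adjusted p under 0.05. Mmp19 lies below 0 in both panels at -0.54 and -0.45, while Mmp9 lies at 0.64 in skin and -1.72 in BMDM.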

How the data were processed

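The authors deposited raw counts per RefSeq transcript in separate tables for skin and BMDM. FastQC 0.12.1, cutadapt 4.4, HISAT2 2.2.1, featureCounts and the build mm10 are named in the submitters' processing notes. Neither the strand setting nor the treatment of shared reads is given in the sources used here. Of 45843 rows in skin and 45895 in BMDM, 45697 and 45749 were matched to a gene through RefSeq and 29 in each through GENCODE. The 117 unmatched rows of each table held 0.187% and 0.514% of the counts and were left out. Each gene was represented in both tables by the same row, the one with the highest summed CPM over both. For 68 of 80 members, choosing within each table alone would also give 1 row for both.

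The tests used edgeR 4.0.16 under R 4.3.3 (TMM factors, filterByExpr at a count of 10 and a total of 15, robust quasi-likelihood F test) over all genes, with Benjamini-Hochberg adjustment and a threshold of 0.05. Skin was fitted with genotype, BMDM with batch and genotype, and interaction and source over 18 libraries with group and batch. Log2 fold changes are T166A over WT, and SEs come from the F statistic. The tests were also run on simulated counts with known changes. The simulation gave all genes a common spread and no batch, so it does not show how the tests perform in BMDM. Differences within a BMDM batch are of mean CPM plus 0.1, and intervals and floors cover counting error only. Same-numbered BMDM libraries deviated together over all genes (correlations 0.200, 0.115 and 0.189), where the batch is given, and skin libraries hardly did (-0.046 to 0.089). Some skin marker sums followed the number in both genotypes. Endothelial markers were lowest in replicates 1, 4 and 6, in this order. They were at 1980, 2240 and 2350 CPM there in T166A and at 1480, 1580 and 1620 CPM in WT. Fibroblast markers were highest in replicate 1 (11900 CPM in T166A, 10900 CPM in WT) and lowest in replicate 3 (6470 and 7330 CPM). Keratinocyte markers were lowest in T166A replicate 3 (171 CPM) but WT replicate 1 (165 CPM). Pairing in skin is not labelled, and the main skin fit does not use it. With a replicate block 29.4% of all genes passed in skin, against 25.9% in the main fit.

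Named were members past the threshold, the 5 with the smallest p in BMDM and in the interaction, the 8 highest per length in each source, all Timp genes and the 6 with the largest difference between sources in each direction among those expressed. Other members were named after their values were seen, as were list genes. The values of 1 list gene are not reported here. The members and lists were chosen with earlier results of these data known. Alternatives were RLE factors, library totals alone, other filters, DESeq2 1.42.0, limma-voom (limma 3.58.1), summed rows, other rows, batch B1 alone, fits with a replicate block or without the batch, removal of length trends and leaving out each library. Library totals, rows chosen within a table and the length trend in the interaction were added after seeing the data.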

Additional observations from a re-analysis of the deposited data

Results flagged for a closer look

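Single libraries stood far from the others of their group in 6 of 72 groups of 6 skin libraries examined for the named members, and chance alone flags about 1 in 20. Adam11 reached 2.69 CPM in T166A replicate 3, and without that library its edgeR adjusted p was 0.0503. Adamts10 was lowest in WT replicate 1 at 13.5 CPM, and Adamts15 was highest there at 4.85 CPM. WT replicate 3 held the highest Adamts4, at 1520 CPM, and the highest Timp4, at 4.43 CPM. Mmp27 was lowest in WT replicate 2, at 1.1 CPM.

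The genotype effect differed between skin and BMDM by the interaction test for 10 members, given as skin effect minus BMDM effect on the log2 scale. The difference was negative for Adam9 (-0.65), Mmp14 (-0.41), Mmp25 (-1.24), Mmp15 (-1.68) and Mmp16 (-7.21), and positive for Mmp9 (2.34), Timp1 (1.50), Adam23 (1.62), Mmp10 (2.46) and Adamts7 (4.49). Of these, Adam9, Mmp14 and Mmp9 averaged over 5 CPM in every group. The values of Mmp16 and Adamts7 rest on BMDM libraries with almost no counts and have no readable size. The call of Adam23 was lost in 19 of 28 alternatives and that of Mmp25 in 8.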

How the results depend on the processing

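In skin, 14 members kept direction and call in all 23 alternatives: Mmp19, Adamts8, Mmp28, Adamts7, Mmp17, Adam10, Adam22, Adamts12, Mmp15, Mmp3, Adamts1, Mmp25, Mmp11 and Mmp12. Leaving out 1 library at a time gave 7 to 11 members lower in skin and 0 to 2 lower in BMDM, and 3 to 7 higher and 3 to 16 lower in the interaction. Of all genes in these fits, 11.3% to 13.4% were lower in skin and at most 0.0586% in BMDM. In the interaction 10.6% to 20.1% of all genes passed. With library totals alone, chosen after seeing the data, 6 members were lower in skin, and all genes split into 3357 higher and 1307 lower, against 1962 and 2048 with TMM. DESeq2 called 2 members higher and 2 lower in BMDM, and limma-voom 1 and 1. In the interaction limma-voom gave 0 higher and 1 lower, and omitting the batch 3 higher and 2 lower. The cause was not tested. Small values changed sign. Adam15 in skin was -0.00 with RLE factors and with DESeq2, -0.03 with limma-voom and -0.04 to 0.02 when 1 library was left out. With library totals alone Adam9, Adam8 and Mmp10 in skin were 0.02, 0.04 and 0.05, and with 1 library left out Adam8 spanned -0.08 to 0.00 and Mmp10 -0.12 to 0.08. Mmp2 in BMDM was -0.56 in batch B1 alone and -0.56 to 3.20 with 1 library left out. With the replicate block 29.4% of all genes passed in skin, against 25.9% without it, and 14 members were higher and 12 lower, including Adamts4 (adjusted p = 0.0277 by edgeR) and Adamts9 (0.000788), while the interaction had 7 and 6 (13.8% of all genes passed) and BMDM 0 and 0. For members near 0 CPM in BMDM the values rest on few counts.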
